A study of Homo sapiens with 9 samples.

Results

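A pair of short hairpin RNAs against DDX41, a DEAD-box RNA helicase, left very different amounts of its mRNA in MOLM13 cells, and the comparison here set those 2 knockdowns directly against each other, gene by gene. MOLM13 is a human acute myeloid leukemia cell line. Its cells were transduced with pLKO.1-GFP lentivirus carrying sh-DDX41_1, sh-DDX41_2 or sh-Control, and the sorted cells were taken on day 4 for poly(A)-selected RNA sequencing. Each hairpin had 3 libraries (A, B and D), so 6 of the 9 libraries of the series entered the comparison. The 3 sh-Control libraries were used only to place the level without knockdown. The transcripts compared were those with enough counts in the 6 hairpin libraries, which left 12505 genes (41.7%) of the 30017 in the table. No library of the 9 had a count for 10641 of these. The parental line was the same throughout, and the 2 hairpins differ in sequence as well as in the DDX41 mRNA they left, which cannot be told apart here. The study's methods describe its quantified assays as biological replicates without naming these libraries, and the labels do not say that A, B and D came from separate cultures, so the p-values measure the spread between these libraries, which may be technical.

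DDX41 belongs to the helicases that unwind RNA at the cost of ATP. It has been tied to the spliceosome, to the removal of R-loops (RNA paired with one DNA strand behind a polymerase) and to the sensing of cytosolic DNA, and its inherited variants predispose to myeloid neoplasms. In a dividing cell, the genes that license and copy DNA and those that build the spindle are switched on in order, largely by E2F factors and by the complexes that read CHR elements. Small nucleolar RNAs (snoRNAs) guide the chemical modification of ribosomal RNA, and in human cells most are cut out of the introns of host genes, many of which encode ribosomal proteins or the non-coding SNHG transcripts.

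The total counts ran from 16385238 to 20510032 in the hairpin libraries. The first principal component of their log2 CPM (counts per 1e6 library counts after scaling) separated the hairpins and held 88.8% of the variance, against 4.70% for the second. Library D of sh-DDX41_1 stood apart from its partners. Its counts differed from theirs by 17.9 and 19.5 chi-square units per degree of freedom, against 2.93 between A and B and 2.47 to 3.29 within sh-DDX41_2, while pairs across the hairpins differed by 40.5 to 72.4. The defining myeloid genes of the line were present, except that ANPEP was at or below 1.13 CPM in every library. The 11 MOLM13 markers summed to 2542 to 2660 CPM with sh-DDX41_1, to 3383 to 3440 with sh-DDX41_2 and to 2497 to 2708 in sh-Control. This gap came from LYZ, since the other 10 summed to 1696 to 1745, 1551 to 1629 and 1617 to 1722 CPM in the same order. Markers of B, erythroid, megakaryocytic and neutrophil cells summed to at most 1.32 CPM in any hairpin library, with 2, 7, 2 and 3 of those lists' genes at 0 in all 6. The 8 T and NK cell markers summed to 12.5 to 17.6 CPM with sh-DDX41_1 and 24.6 to 27.5 with sh-DDX41_2, with 3 of the 8 at 0 throughout. The 7 markers of the 293T cells that made the virus summed to 16.5 to 17.8 and 18.0 to 19.1 CPM, with 3 of the 7 at 0. The part of these markers in the results below was not tested.

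DDX41 was the first gene examined, as the check of the labels. The gene lies at chr5:177511577-177516961 (GRCh38.p14). In sh-Control it was at 117, 114 and 113 CPM in libraries A, B and D. With sh-DDX41_2 it was at 38.9, 39.9 and 42.5 CPM, and with sh-DDX41_1 at 12.2, 12.9 and 9.94 CPM. No 2 groups overlapped. The means were 115 ± 1.76, 40.4 ± 1.84 and 11.7 ± 1.56 CPM (SD, n = 3 each), so that 35.2% of the control level remained with sh-DDX41_2 and 10.2% with sh-DDX41_1. Between the hairpins the log2 fold change (sh-DDX41_1 minus sh-DDX41_2, as throughout) was −1.80 (SE 0.103, adjusted p 1.8e-07 by edgeR's quasi-likelihood test, adjusted after Benjamini and Hochberg). The exact two-sided permutation test gave p = 0.1, the smallest that 3 against 3 libraries allow. These values rest on 164 to 216 counts per library with sh-DDX41_1 and on 701 to 805 with sh-DDX41_2.

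**Figure D1:**
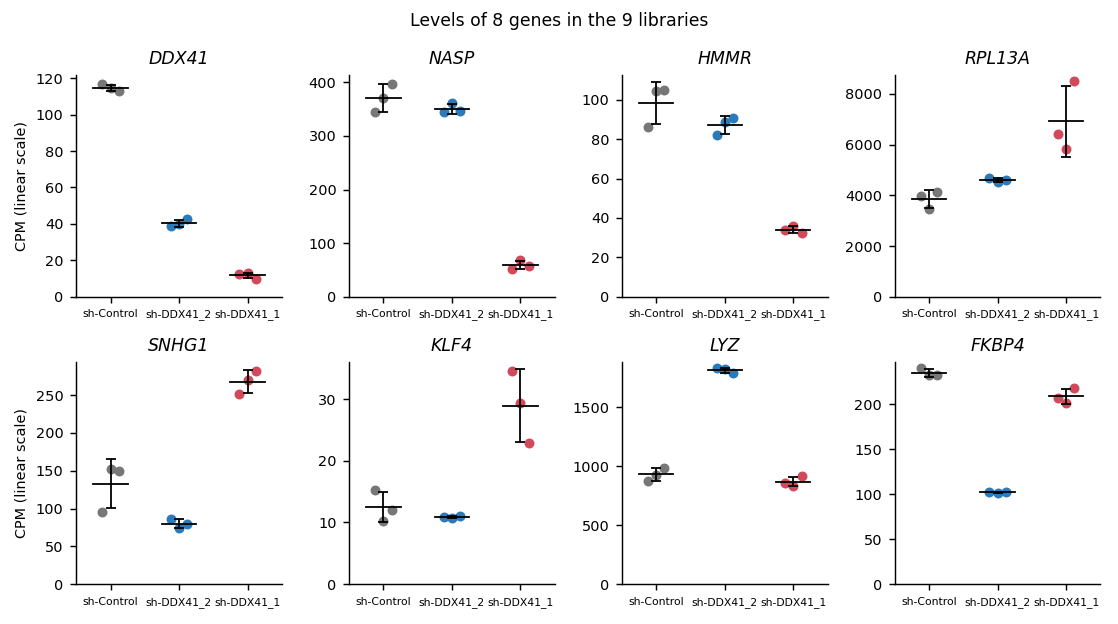
Levels of 8 genes in counts per 1e6 counts (CPM, linear axes from 0) in the 3 libraries of each group, with the mean (bar) and SD (whisker, n = 3). DDX41 steps down from sh-Control over sh-DDX41_2 to sh-DDX41_1, while NASP and HMMR are low only with sh-DDX41_1 among these groups, and LYZ and FKBP4 stand out with sh-DDX41_2.

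Across all expressed genes the hairpins differed widely. At an adjusted p under 0.05, 6159 of the 12505 genes (49.3%) were called, 3002 higher (24%) and 3157 lower (25.2%) with sh-DDX41_1. Most of the differences were small, with a median size of 0.28 on the log2 scale over all genes tested. A fitted fold change of at least 2 was met by 805 of the called genes (6.44% of those tested), 412 higher and 393 lower. In 7276 genes (58.2%) the CPM of the 2 hairpins did not overlap. The share called followed the level of the gene, at 33.4% below 6.95 CPM and 52.1%, 57.1% and 54.4% in 3 equal bins above it, where counting error is smaller. Without library D of sh-DDX41_1, 7276 genes were called, a number that equals the count of non-overlapping genes by coincidence. A number in parentheses after a gene is its log2 fold change between the hairpins, and each adjusted p is from edgeR. In every gene list that follows, members called should be read against these shares of 24% higher and 25.2% lower.

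**Figure D2:**
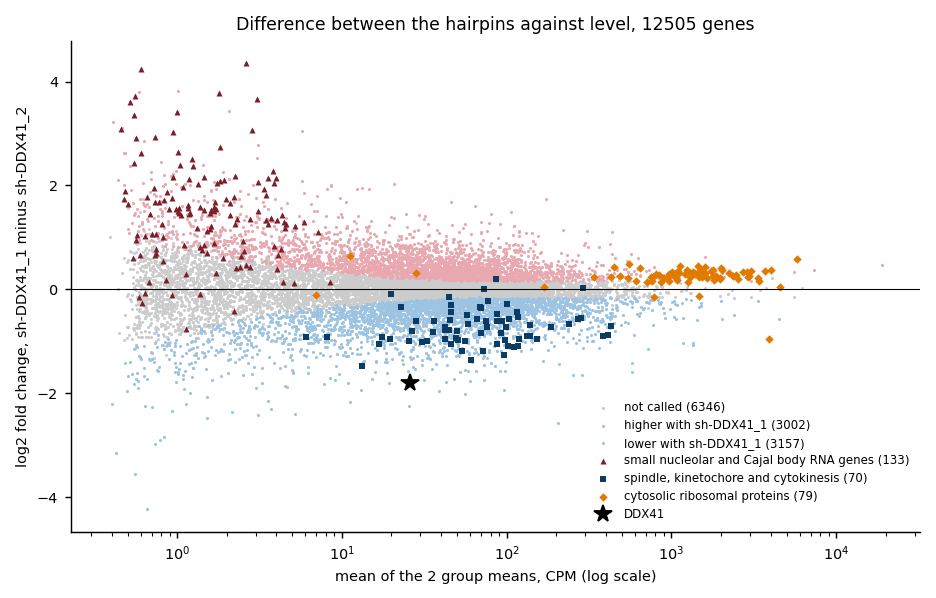
Log2 fold change between the hairpins (sh-DDX41_1 minus sh-DDX41_2) against the mean of the 2 group means in CPM (log axis) for each gene tested, with called genes in color. The snoRNA genes (triangles) lie mostly above 0 at low levels, the spindle genes (squares) mostly below 0, the ribosomal protein genes (diamonds) slightly above 0 at high levels, and DDX41 (star) at −1.80.

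The control libraries showed from which side a gap between the hairpins opened. Of the 805 genes called with a fold change of at least 2, the mean with sh-DDX41_1 alone lay more than 1.5-fold from the sh-Control mean in 274 of the 412 higher genes (66.5%) and in 249 of the 393 lower ones (63.4%). The mean with sh-DDX41_2 alone did so in 76 (18.4%) and 79 (20.1%). The hairpins lay beyond that limit on opposite sides of the control in 20 and 13 genes, both on the same side in 3 and 11, and neither passed it in 39 and 41. Over all 3002 higher calls the control mean lay between the hairpins in 1828 (60.9%), below both in 866 and above both in 308. Over the 3157 lower calls it lay between them in 1644 (52.1%), above both in 1191 and below both in 322. For all genes tested the shares were 38.5% between, 30.7% below both and 30.8% above both. The mean with sh-DDX41_1 was the farther of the 2 from the control in 67.2% of the higher and 73.4% of the lower genes, against 62.8% of all genes tested.

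Among called genes without overlap and with at least 5 CPM in the higher group, the largest fall with sh-DDX41_1 was that of NASP. It encodes a chaperone of histones H1, H3 and H4 and lies at chr1:45584041-45618893 (GRCh38.p14). NASP stood at 52.3, 68 and 57.9 CPM with sh-DDX41_1 and at 345, 362 and 346 CPM with sh-DDX41_2. The sh-Control libraries, at 345, 371 and 397 CPM, overlapped those of sh-DDX41_2 and not those of sh-DDX41_1. That is a difference of −2.57 on the log2 scale (SE 0.0886, adjusted p 1.1e-08). The acylphosphatase ACYP1 followed a like order of levels, at 1.08, 2.09 and 1.76 CPM against 9.02, 8.13 and 8.90 CPM, with a control mean of 9.24 CPM (−2.40). DSCC1, part of the clamp loader that acts in sister chromatid cohesion, was at 14.9, 18.2 and 15.4 CPM against 63.1, 62.1 and 60.7 CPM, beside 68.1 ± 7.09 CPM in sh-Control (−1.95). In each of these genes it was sh-DDX41_1 that lay apart.

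Other large differences came from levels above control with sh-DDX41_2. SHISA2, which encodes an endoplasmic reticulum protein that holds back Wnt and FGF receptors, was at 159.8, 157 and 139 CPM with sh-DDX41_2, at 45.8, 38.9 and 35.6 CPM with sh-DDX41_1 and at 26.5, 27.3 and 24.4 CPM in sh-Control (−1.93, SE 0.0954, adjusted p 6.8e-08). MGAT3, which adds the bisecting sugar to N-glycans, was at 5.62, 5.35 and 4.72 CPM with sh-DDX41_2 and at or below 1.33 CPM in the other 6 libraries (−2.41). S100A9, a calcium-binding protein of mature myeloid cells, was at 4.54, 7.53 and 5.33 CPM against 1.45, 0.778 and 1.76 CPM, with a control mean of 1.77 CPM (−2.14). In the large falls that follow the control mean lay between those of the hairpins. They include the G protein subunit GNG2, with means of 9.01, 42.2 and 23.2 CPM for sh-DDX41_1, sh-DDX41_2 and sh-Control (−2.24), and the RNA-binding protein RBM47 with 5.42, 20.6 and 10.6 CPM (−1.93). The adducin ADD3 (−2.01), the asialoglycoprotein receptor subunit ASGR2 (−2.30) and the pyrimidine-degrading enzyme UPB1 (−1.89) are the others.

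Of the 12 largest rises with sh-DDX41_1 among genes reaching 5 CPM, 8 were small nucleolar RNA genes, described with their class below. The others were C5orf20, U2AF1, LOC102724428 and BIVM. C5orf20 (RefSeq symbol DCANP1) was at 34.6, 32.4 and 32.9 CPM against 9.02, 5.75 and 9.69 CPM, with 12.6, 12.4 and 12.9 CPM in sh-Control (2.03, SE 0.148, adjusted p 8.0e-07). BIVM was at 10.4, 7.84 and 9.52 CPM against 3.29, 1.59 and 1.57 CPM (2.09). The splicing factor gene U2AF1 was at 13.4, 1.62 and 1.21 CPM with sh-DDX41_1, so library A made most of its mean, and at 0.81, 0.743 and 0.787 CPM with sh-DDX41_2. Without library A its log2 fold change was 0.84 (edgeR, adjusted p 0.0600), not called. U2AF1 and LOC102724428 each have a near-identical copy elsewhere on chromosome 21 and their counts are uncertain.

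Most of the tested genes of DNA replication and cell division were lower with sh-DDX41_1. Of the 26 genes that license and fire replication origins, 20 fell and 2 rose (median −0.65, where the median over all genes tested was 0.0045). Among the lower ones, CDC45, a subunit of the replicative helicase, was at 27.6, 31.4 and 31.2 CPM with sh-DDX41_1, at 69.7, 64.9 and 68.9 CPM with sh-DDX41_2 and at 76.2, 85.5 and 82.5 CPM in sh-Control (−1.18, SE 0.0743, adjusted p 3.2e-07). RECQL4 (−1.13), a helicase of origin firing, and CDC7 (−1.10), the kinase that triggers it, followed. The exceptions were MCM6, a helicase subunit that was higher (0.36), with means of 239, 185 and 366 CPM for sh-DDX41_1, sh-DDX41_2 and sh-Control, and ORC5 (0.23), whose call was lost in 7 of 17 alternatives.

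At the replication fork, 27 of 32 genes fell and 3 rose (median −0.65). TIMELESS, which steadies the fork, was at 46.6, 47.9 and 43 CPM against 134, 140.0 and 132 CPM, and sh-Control was at 128, 135 and 127 CPM (−1.57, SE 0.0687, adjusted p 3.0e-08). CLSPN, the claspin that relays replication stress to CHK1, fell by 1.25 on the log2 scale. The higher ones were the accessory polymerase subunits POLE3 (0.20) and POLE4 (0.37) and the clamp loader subunit CHTF8 (0.46). Besides NASP, the histone chaperones included ASF1B (−1.28) and the FACT subunit SUPT16H (−0.86), and 14 of the 18 fell (median −0.56). The 1 that rose was DAXX (0.25).

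Nucleotide synthesis split more evenly, with 14 of 26 genes lower and 4 higher (median −0.29). RRM2, the S phase subunit of ribonucleotide reductase, was at 118, 122 and 97.5 CPM against 308, 308 and 293 CPM (−1.44, SE 0.0841, adjusted p 2.0e-07), with 347 ± 13.2 CPM in sh-Control. Thymidine kinase TK1 (−0.96) was also lower, whereas the purine enzymes IMPDH2 (0.30) and ADSL (0.27) and the pyrimidine enzyme DHODH (0.52) were higher. Of the E2F and retinoblastoma family, 11 of 19 were lower (median −0.41), among them E2F7 (−1.57), MYBL2 (−1.01) and E2F1 (−0.90), and E2F5 (1.06) and E2F6 (0.67) were higher. Of the cyclins, their kinases and inhibitors, 13 of 21 were lower (median −0.48). CCNE2, the S phase cyclin E2, was at 22.3, 22 and 22.7 CPM against 75, 74.8 and 71.4 CPM (−1.73, SE 0.0674, adjusted p 2.3e-08), the mitotic kinase CDK1 fell by 1.17 and its inhibitor PKMYT1 by 1.46 on the log2 scale. CCND2, a G1 cyclin, was higher (0.75), as was the phosphatase CDC25A (0.55).

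Of the spindle, kinetochore and cytokinesis genes, 65 of 70 were lower and 1 higher, with a median of −0.77. HMMR, a spindle-associated hyaluronan receptor, was at 34, 36 and 32.2 CPM with sh-DDX41_1 and at 81.9, 88.9 and 90.7 CPM with sh-DDX41_2, and the control libraries at 86.3, 104 and 105 CPM overlapped sh-DDX41_2 (−1.37, SE 0.0731, adjusted p 1.2e-07). RACGAP1 (−1.19), of the centralspindlin complex, and the kinesin KIF20B (−0.97) followed. Without library D of sh-DDX41_1, 65 of the 70 were still lower, with a median of −0.71. The single higher member was CKS2 (0.19), a subunit that binds cyclin-dependent kinases, and its call was lost without sh-DDX41_1 A or any 1 library of sh-DDX41_2. In homologous recombination and Fanconi repair, 26 of 33 were lower (median −0.62). FANCI, a partner of FANCD2 in a DNA clamp, fell by 1.56, and the nuclease EXO1 fell by 0.97 on the log2 scale. FANCF was the 1 that was higher (0.51). In bulk RNA, a smaller share of cells in a phase of the cycle and less RNA of its genes per cell cannot be told apart.

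The promoters of 3 of these genes are shown, from 250 bases before to 50 after the start (RefSeq, GRCh38.p14), as examples of what members of the lists do and do not share. Capitals mark CCAAT, the core of the CHR element (TTTGAA) and stretches of E2F type, which were spelled TTCCCGC in the first form, TTGGCGC in the second form and TTCGCGC in the last, and both strands were searched.
NASP, chr1:45583791-45584090 (plus strand): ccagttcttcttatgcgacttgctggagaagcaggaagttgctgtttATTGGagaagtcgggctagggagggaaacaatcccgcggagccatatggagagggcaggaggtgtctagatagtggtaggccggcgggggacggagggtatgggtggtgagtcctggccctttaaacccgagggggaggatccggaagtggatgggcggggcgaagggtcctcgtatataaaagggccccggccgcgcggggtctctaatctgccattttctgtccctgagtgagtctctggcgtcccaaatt
TIMELESS, chr12:56449377-56449676 (minus strand): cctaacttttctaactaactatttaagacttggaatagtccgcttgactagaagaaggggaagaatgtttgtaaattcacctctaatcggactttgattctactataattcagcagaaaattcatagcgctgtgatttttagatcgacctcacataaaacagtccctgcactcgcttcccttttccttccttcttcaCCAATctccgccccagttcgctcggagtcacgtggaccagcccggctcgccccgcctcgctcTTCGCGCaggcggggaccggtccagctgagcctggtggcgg
HMMR, chr5:163460382-163460681 (plus strand): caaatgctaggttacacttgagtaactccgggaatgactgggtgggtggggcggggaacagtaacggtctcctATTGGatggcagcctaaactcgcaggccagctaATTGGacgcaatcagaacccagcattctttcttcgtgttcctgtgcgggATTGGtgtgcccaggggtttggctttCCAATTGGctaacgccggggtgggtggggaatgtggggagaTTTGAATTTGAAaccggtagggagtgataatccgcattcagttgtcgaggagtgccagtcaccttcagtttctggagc
The HMMR window holds 2 copies of TTTGAA side by side and 5 CCAAT letters in either direction, 2 of which overlap. TIMELESS holds 1 CCAAT and TTCGCGC after its start, and NASP only 1 CCAAT, read on the other strand. Windows were found for 9584 (76.6%) of the genes tested. Of the windows of the 190 lower members of the 8 cell cycle lists above, 158 were found, and 48 of them (30.4%) held TTTGAA, 94 (59.5%) CCAAT and 72 (45.6%) an E2F-type stretch. Over all genes tested the shares were 9.69%, 37.1% and 18.0%. Over the 204 windows of all tested members of these lists, called lower or not, they were 26.5%, 55.4% and 42.6%. Of the 2512 windows of all lower genes 12.4% held TTTGAA and 23.1% an E2F-type stretch, and of the 2322 of all higher genes 8.23% and 15.4%. The lists were built from cell cycle genes, so these shares describe the lists as well as the difference, and the match of letters is no evidence of binding.

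Of the replication-dependent histone genes, 5 were called higher and none lower. Only 12 of the 54 in the list had enough counts to be tested, and a gene could enter through the hairpin where it was high. Among the 7 with at least 10 counts in every control library, 3 were higher and none lower. The median was 0.79 as tested and 0.33 with no filter on low counts. Their mRNAs mostly lack the poly(A) tail by which the libraries were made. HIST1H2BK was at 44.5, 36.9 and 55.3 CPM against 17.2, 18.2 and 17.3 CPM, with 15.5, 14.1 and 17.6 CPM in sh-Control (1.36, SE 0.124, adjusted p 4.6e-06). HIST2H2BE (1.26) and HIST1H2AC (0.90) were also higher. Reads of these near-identical genes can be split between copies.

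Most small nucleolar RNA genes tested were called higher with sh-DDX41_1. Fewer than 1 in 3 were with offsets for base composition and length, which were fitted on all genes, these included. Over all 408 snoRNA and Cajal body RNA genes of the table, without any filter, libraries A, B and D held 403, 426 and 339 CPM (of each library's total) with sh-DDX41_1 and 171, 153 and 158 with sh-DDX41_2. The control libraries held 173, 250 and 232, so library D was the lowest of sh-DDX41_1 and still above all 6 others. Of the 133 genes that passed the filter, 100 were higher and 1 lower (median 1.44), but at these levels many could pass only through the hairpin where they were high. Among the 80 with at least 10 counts in every control library, which had no part in the test, 58 were higher and 1 lower (median 1.28), where 24.0% and 26.1% of all genes so kept were called in each direction. These libraries were made from poly(A) RNA, so the counts describe snoRNA sequence that passed that selection. The length and base composition of a snoRNA set it apart from other genes, and with offsets for GC content and transcript length 38 of 122 were higher and 12 lower (median 0.42). Over all genes under these offsets, 3269 of 11872 were higher and 3055 lower. Since snoRNAs entered the fit of the offsets, part of their own difference can be removed with them.

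SNORD35A and SNORD32A, within the gene RPL13A of a large-subunit ribosomal protein at chr19:49487608-49492308 (GRCh38.p14), were among the largest of these rises, as was SNORD88C of the host C19orf48. Their sequences (GENCODE, GRCh38) are shown with the SNORD33 and SNORD34 of the same host and with SNORD27, the only snoRNA gene called lower, in the host SNHG1. Capitals mark the letters TGATG of box C nearest the 5′ end and the last CTGA of box D, the motifs between which a C/D snoRNA holds its guide.
SNORD35A, chr19:49491175-49491260 (plus strand): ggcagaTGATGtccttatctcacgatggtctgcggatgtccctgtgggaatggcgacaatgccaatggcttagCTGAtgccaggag
SNORD34, chr19:49490904-49490974 (plus strand): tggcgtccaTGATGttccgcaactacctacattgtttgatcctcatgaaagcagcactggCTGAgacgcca
SNORD33, chr19:49490615-49490699 (plus strand): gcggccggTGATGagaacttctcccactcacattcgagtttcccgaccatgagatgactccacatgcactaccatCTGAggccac
SNORD32A, chr19:49489965-49490048 (plus strand): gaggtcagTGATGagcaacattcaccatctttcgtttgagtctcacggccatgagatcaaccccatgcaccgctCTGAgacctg
SNORD88C, chr19:50802328-50802418 (minus strand): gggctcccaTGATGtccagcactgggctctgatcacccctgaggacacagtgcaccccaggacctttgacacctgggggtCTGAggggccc
SNORD27, chr11:62855012-62855083 (minus strand): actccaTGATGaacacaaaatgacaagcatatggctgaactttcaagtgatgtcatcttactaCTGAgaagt
All 6 hold both boxes, as members of the C/D class do, so the boxes could not set SNORD27 apart from the others. SNORD35A was at 5.48, 6.46 and 5.03 CPM with sh-DDX41_1, at 0.432, 0.396 and 0.485 CPM with sh-DDX41_2 and at 0.666, 1.20 and 1.05 CPM in sh-Control (3.67, SE 0.243, adjusted p 4.1e-07). SNORD32A was at 4.46, 5.80 and 5.03 CPM against 0.594, 0.694 and 0.485 CPM (3.07, SE 0.237, adjusted p 1.3e-06), SNORD33 had a log2 fold change of 2.51 and SNORD34 one of 1.55. With the offsets SNORD35A and SNORD32A were still called, SNORD32A at 1.88 on the log2 scale. The 4 lay above the change of their host RPL13A, which was at 6428, 5839 and 8506 CPM against 4667, 4524 and 4591 CPM (0.58, SE 0.112, adjusted p 0.00106). SNORD88C was at 6.20, 5.09 and 3.70 CPM against 0.216, 0.198 and 0.303 CPM (4.36), and its host C19orf48 rose by 0.33 on the log2 scale.

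Across the class, 122 of the tested snoRNA genes lay within 59 tested host genes. The snoRNA had the higher log2 fold change in 98 of the 122 pairs, with a median of 1.51 over the snoRNAs and of 0.35 over the hosts. Since many of these snoRNAs could pass the filter only where they were high, the pairs were also taken with at least 10 counts of the snoRNA in every control library, which gave 52 of 73, with medians of 1.34 and 0.38. With the offsets for GC content and length it was 57 of 109, with medians of 0.48 and 0.34, and with both restrictions 23 of 62, with medians of 0.20 and 0.37. The excess of the snoRNAs over their hosts was thus smaller or reversed with the offsets. These were fitted on all genes, the snoRNAs included, so they can take up a difference of the snoRNAs themselves. They cannot tell such a difference from a part of base composition or length. Of the 97 higher snoRNAs, 83 lay in a host that was also higher, as did 105 of all 122 (86.1%). In 24 pairs, from 11 hosts, the snoRNA had the lower value, and SNHG1 held 7 of these. The transcript was at 251, 271 and 282 CPM with sh-DDX41_1, at 85.8, 74.1 and 79.3 CPM with sh-DDX41_2 and at 95.1, 152 and 150.1 CPM in sh-Control (1.74, SE 0.0731, adjusted p 2.8e-08). Its 8 tested snoRNAs had a median of only 0.61, from 1.93 for SNORD25 to −0.77 for SNORD27, which was at 0.663, 1.08 and 0.788 CPM against 1.19, 1.59 and 1.51 CPM (adjusted p 0.0481) and lost its call under most alternatives. In these counts, reads of a free snoRNA and of an intron kept in its host cannot be told apart. Genes of 1 host share its transcript and are not independent.

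**Figure D3:**
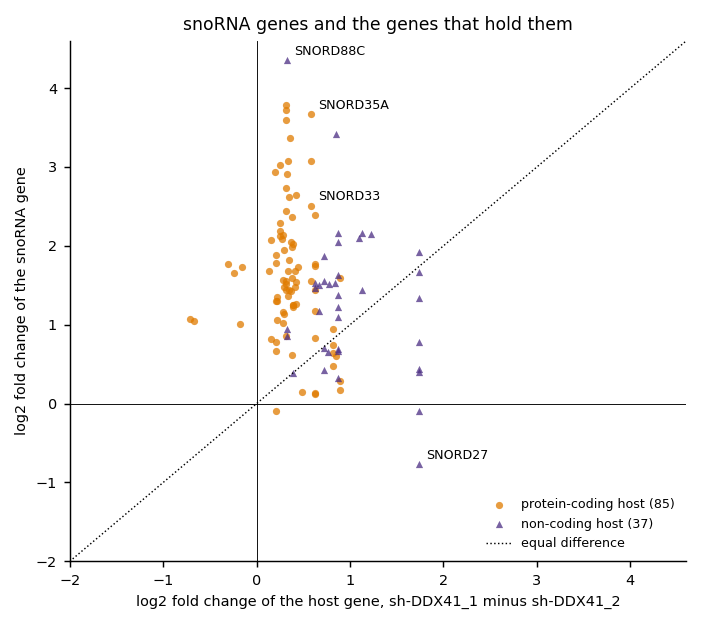
Log2 fold change of each tested snoRNA gene (vertical) against that of the tested gene that holds it (horizontal), both sh-DDX41_1 minus sh-DDX41_2. The values are those without offsets for GC content and length, and most points lie above the dotted line of equal difference, while the column of triangles at 1.74 is SNHG1, whose snoRNAs lie mostly below it.

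The list of SNHG and related host transcripts, which also holds the protein-coding hosts TAF1D and CWF19L1, was mostly higher. Of the 21 tested, 18 were higher and 1 lower with sh-DDX41_1 (median 0.81). The lower one was CWF19L1, whose call was lost in 7 of 17 alternatives. SNHG3 was at 149, 158 and 158 CPM against 67.6, 61.9 and 67.5 CPM (1.23, SE 0.0651, adjusted p 1.2e-07) and SNHG16 at 148, 148 and 172 CPM against 69.9, 64.2 and 65.8 CPM (1.22, SE 0.0731, adjusted p 2.3e-07), with control means of 69.4 and 72.5 CPM that lay close to sh-DDX41_2. RNU105A, the RefSeq gene SNORA73B within SNHG3, was at 10.5, 12.5 and 7.58 CPM against 1.13, 1.49 and 1.03 CPM (3.04), and SNORA73A of the same host rose by 2.15 on the log2 scale. The other snoRNA genes among the largest rises were SNORD55 (2.29), SNORD14B (2.14), SNORA64 (2.07) and SNORA70 (2.04).

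Of the 79 cytosolic ribosomal protein genes, 50 were higher and 1 lower with sh-DDX41_1, with a median of 0.28. The list level was highest in library D, and without that library the median was 0.15 with 57 members higher and 3 lower. RPS4X (0.44) was among the higher ones, at means of 1683 against 1227 CPM. RPL8 was the exception, at 2525, 2572 and 2993 CPM with sh-DDX41_1, 5200.2, 5155 and 5165 CPM with sh-DDX41_2 and 4897, 4036 and 4461 CPM in sh-Control (−0.95, SE 0.0747, adjusted p 1.4e-06). Of the 78 genes of ribosome assembly, 51 were higher and 5 lower (median 0.29). NOB1, the nuclease that finishes 18S rRNA, was at 188, 187 and 196 CPM against 94.5, 99.5 and 104 CPM (0.93, SE 0.0617, adjusted p 4.3e-07), and the 60S assembly factor NIP7 (0.89) and the U3 snoRNP protein IMP4 (0.76) were higher. DKC1, the pseudouridine synthase that works with H/ACA snoRNAs, was lower at 139, 151 and 153 CPM against 258, 257 and 267 CPM (−0.83, SE 0.0613, adjusted p 8.8e-07), as was its partner NHP2 (−0.44). Of the 48 translation factors 19 were higher, among them EIF4A2 (0.81), a snoRNA host, and PABPC4 (0.66), and 8 were lower, among them EIF4G3 (−0.89) and EIF4EBP2 (−0.67), and 14 were lower without library D of sh-DDX41_1. Many ribosomal protein genes have processed copies that can share their reads.

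**Figure D4:**
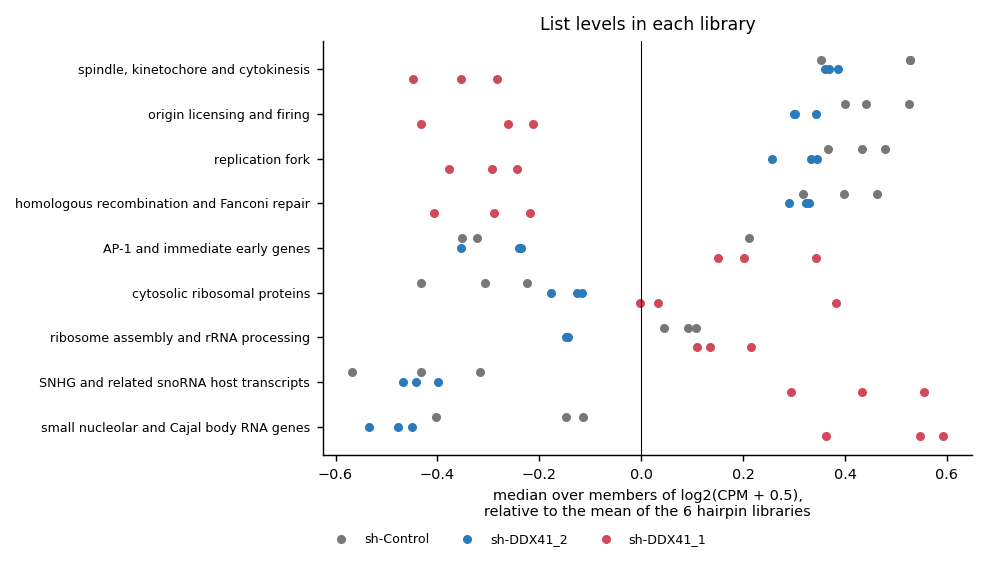
Level of 9 gene lists in each library, as the median over tested members of log2(CPM + 0.5) relative to the mean of the 6 hairpin libraries. The cell cycle lists put sh-Control beside sh-DDX41_2 and apart from sh-DDX41_1, the ribosome assembly list puts sh-Control beside sh-DDX41_1, and library D is the point far to the right among the cytosolic ribosomal proteins.

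Immediate early genes, the transcription factors and phosphatases that respond first to a signal, were higher with sh-DDX41_1. Of 27, 20 rose and 4 fell (median 0.56). KLF4 was at 34.6, 29.4 and 22.9 CPM against 11, 10.8 and 11 CPM, with 15.2, 10.3 and 11.9 CPM in sh-Control (1.40, SE 0.139, adjusted p 8.1e-06). EGR1 was at 21.3, 21.4 and 18.8 CPM against 9.07, 8.77 and 8.18 CPM (1.23, SE 0.106, adjusted p 2.8e-06). FOSL1 (1.06) stood apart through sh-DDX41_2, at means of 16.5, 34.5 and 29.3 CPM for sh-DDX41_2, sh-DDX41_1 and sh-Control. In the list of immediate early genes, 1 control library lay beside sh-DDX41_1 and the others beside sh-DDX41_2. FOSL2 (−0.40), MCL1 (−0.33) and the phosphatase DUSP6 (−0.48) were lower.

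A list of 11 stress genes, carried over from an earlier analysis of these data and so no independent evidence of a direction, had 6 higher and 1 lower with sh-DDX41_1. DUSP1, a phosphatase of MAP kinases, was at 10.7, 10.4 and 8.79 CPM against 3.83, 3.02 and 3.63 CPM (1.51, SE 0.153, adjusted p 1.0e-05). FOSB (1.02), FOS (0.77), GADD45A (0.82), JUN (0.54) and JUND (0.26) were also higher. JUN had a control mean of 23.2 CPM, above the means of both hairpins at 17.1 and 11.7 CPM. ETS1 was lower, at 3.79, 4.07 and 2.55 CPM against 6.91, 9.37 and 8.66 CPM (−1.27, SE 0.191, adjusted p 1.9e-04). CDKN1A (−0.12, SE 0.085), ETS2 (−0.02, SE 0.0672), HSPA1B (−0.19, SE 0.0935) and HSPA1A (−0.19, SE 0.208), the last 2 near-identical copies, were not called.

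Other stress pathways split. Of the 33 genes of the ATF4 and amino acid response 13 rose and 10 fell (median 0.11). DDIT3, which encodes CHOP, was at 27.5, 23.2 and 30.7 CPM against 13.4, 11.3 and 9.39 CPM, with 24, 21 and 21.5 CPM in sh-Control, so that sh-DDX41_2 was the group below the control (1.24, SE 0.136, adjusted p 1.7e-05). The cystine transporter SLC7A11 was lower with sh-DDX41_1 (−1.01), as was the glycyl-tRNA synthetase GARS (−0.50). Of 27 endoplasmic reticulum chaperone and degradation genes 9 fell and 1 rose (15 and 4 without library D of sh-DDX41_1). Calreticulin CALR was at 765, 814 and 744 CPM against 1572, 1638 and 1486 CPM and 1849, 1784 and 1723 CPM in sh-Control (−1.02, SE 0.0674, adjusted p 4.0e-07), and HYOU1 fell by 0.70, while HERPUD1 rose by 0.58 on the log2 scale. The 23 heat shock chaperones included 5 higher and 4 lower. FKBP4, an HSP90 co-chaperone, was at 103, 101 and 102 CPM with sh-DDX41_2, less than with sh-DDX41_1 at 207, 202 and 218 CPM or in sh-Control at 240.1, 233 and 232 CPM (1.02, SE 0.059, adjusted p 1.8e-07). Of the 21 NRF2 antioxidant genes 10 were lower, among them GCLM (−0.67) and SQSTM1 (−0.41), and OSGIN1 (1.14) was higher. The BCL2 family had 3 of 14 higher, among them BBC3 (0.66) and BCL2L1 (0.37), and 3 lower, among them BMF (−0.57) and BCL2 (−0.42).

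**Figure D5:**
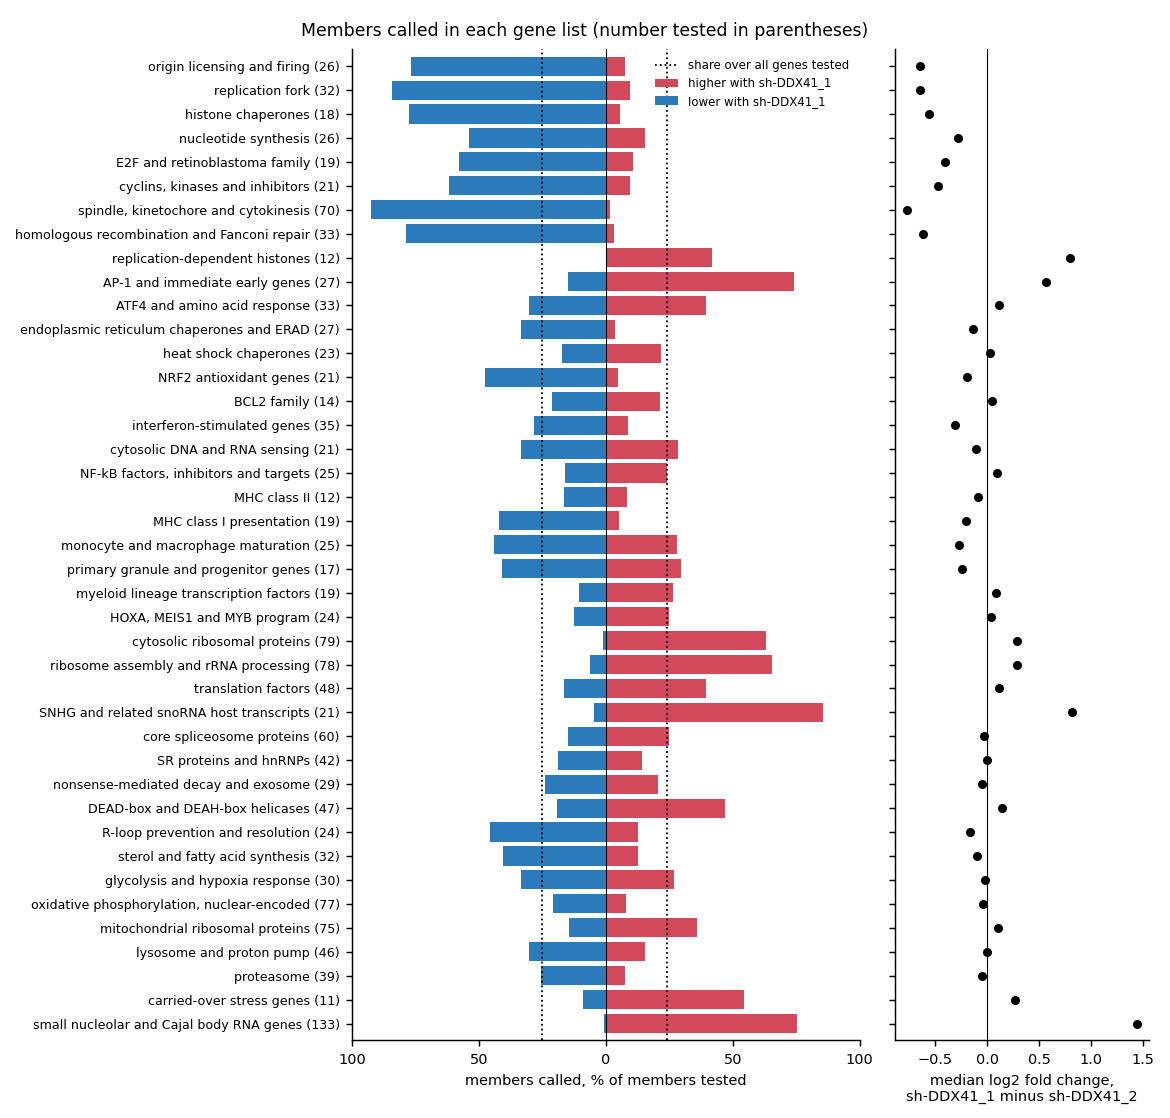
Members called higher (red) and lower (blue) with sh-DDX41_1, in percent of the members tested, and the median log2 fold change of each list. Dotted lines give the shares over all genes tested, 24% higher and 25.2% lower, and the cell cycle lists extend far past the lower line while the snoRNA, snoRNA host and ribosome lists extend past the higher one.

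Genes of innate immunity, a pathway in which DDX41 has been placed as a DNA sensor, were called in both directions. The share called was below the 49.3% of all genes tested in the interferon (37.1%), NF-kB (40%), MHC class I (47.4%) and MHC class II (25%) lists. It was 61.9% in the list of cytosolic DNA and RNA sensing. Of 35 interferon-stimulated genes, 3 were higher and 10 lower with sh-DDX41_1 (median −0.31). TRIM22 was at 96, 89.4 and 118 CPM against 58.2, 66.7 and 66 CPM and 29.6, 36.7 and 40.7 CPM in sh-Control (0.66, SE 0.0967, adjusted p 1.5e-04), and STAT2 rose by 0.47 and its partner IRF9 by 0.49 on the log2 scale. The interferon regulatory factor IRF1 was lower (−0.56). Of the 21 genes of cytosolic DNA and RNA sensing, 6 were higher, among them IRF8 (0.60) and SAMHD1 (0.52), and 7 lower, among them the RNA-activated kinase EIF2AK2 (−0.75). The NF-kB list had 6 of 25 higher, such as ICAM1 (0.90) and NFKBIA (0.54), and 4 lower, such as TNFAIP3 (−0.51). MHC class I presentation had 8 of 19 lower, among them PSME2 (−0.78) and HLA-E (−0.55), and 1 higher. The lower count was 14 without library D of sh-DDX41_1 and 4 without library B of sh-DDX41_2, and the median moved from −0.21 to −0.32 and −0.15. The MHC class II list had 2 of 12 lower, HLA-DMB (−1.49) and CD74 (−0.22), both with control means below those of either hairpin, at 0.768 and 153 CPM, and 1 higher. The call of CD74 was lost in 6 of 17 alternatives.

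Myeloid identity genes also separated the hairpins, and LYZ and ITGAM did so through sh-DDX41_2. Of the 25 genes of monocyte and macrophage maturation 7 were higher and 11 lower with sh-DDX41_1 (median −0.27). Lysozyme, LYZ, was at 1832, 1826 and 1793 CPM with sh-DDX41_2, at 858, 837 and 914 CPM with sh-DDX41_1 and at 876, 930.3 and 986 CPM in sh-Control (−1.07, SE 0.0616, adjusted p 1.8e-07). The integrin ITGAM was at 17.8, 18 and 17.9 CPM against 10.8, 9.81 and 10.9 CPM, with 13.7, 12 and 11.8 CPM in sh-Control (−0.78). ITGAX, another integrin of that family, was lower with sh-DDX41_1 (−1.17), while MS4A6A (0.57) was higher. Primary granule and progenitor genes had 5 of 17 higher, such as the proteases ELANE (0.36) and PRTN3 (0.34), and 7 lower, such as CTSG (−0.73). Of the 19 myeloid transcription factors 5 were higher, GFI1 (0.31) among them, and 2 lower, ETS1 and GATA2 (−0.37). The leukemia program of HOXA, MEIS1 and MYB, which the MLL fusion of this line maintains, had 6 of 24 higher, with MYB at 527, 559 and 570.3 CPM against 335, 367 and 377 CPM (0.61, SE 0.065, adjusted p 1.4e-05) and HOXA5 (0.92), and 3 lower, with CDK6 (−0.57), and 11 were higher without library D of sh-DDX41_1. SOX4 was also lower, but its call was lost under nearly every alternative.

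Genes of RNA processing, the machinery to which DDX41 itself belongs, were called in both directions. Against 49.3% of all genes tested, 40% of the core spliceosome list and 33.3% of the SR protein and hnRNP list were called. The nonsense-mediated decay and exosome list was also below that share, at 44.8%, while the helicase and R-loop lists were above it. Of 60 core spliceosome genes 15 were higher and 9 lower (median −0.04), and 21 were lower without library D of sh-DDX41_1. PHF5A (0.65) and SF3B3 (−0.45), both of the SF3B complex, differed in opposite directions. Among 42 SR proteins and hnRNPs 6 were higher, such as SRSF8 (0.76) and SRSF11 (0.44), and 8 lower, such as HNRNPUL1 (−0.65), counts that were 12 and 14 without that library. Nonsense-mediated decay and exosome genes had 6 of 29 higher, EXOSC10 (0.41) among them, and 7 lower, MAGOH (−0.77) among them. Of the 47 DEAD-box and DEAH-box helicases 22 were higher and 9, DDX41 included, lower (median 0.14). The spliceosomal helicase DDX23 was at 204, 216 and 195 CPM against 143, 152 and 145 CPM (0.47, SE 0.0636, adjusted p 8.1e-05), and the rRNA-bound DDX21 rose by 0.37 on the log2 scale. DDX11, the helicase of sister chromatid cohesion, was at 19.9, 20.7 and 18.4 CPM against 47.8, 47.4 and 44.5 CPM (−1.25, SE 0.0802, adjusted p 3.4e-07), and DHX40 fell by 1.09. Of 24 genes that prevent or resolve R-loops 11 were lower and 3 higher (median −0.16). RNASEH2A, the catalytic subunit of RNase H2, was at 43.9, 52.3 and 53.4 CPM against 87.6, 90.2 and 83.6 CPM (−0.82, SE 0.0786, adjusted p 6.5e-06). Among the lower members of this list are genes of the recombination list above, so the lists are not independent.

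Among genes of metabolism, LDHA, lactate dehydrogenase A, was at 449, 467 and 439 CPM against 988, 1054 and 949.7 CPM, and sh-Control was above both at 1519, 1382 and 1464 CPM (−1.15, SE 0.0647, adjusted p 1.6e-07). HMGCS1, of the mevalonate pathway, had the same order, at 46.2, 47.8 and 41.4 CPM, 94.1, 106 and 97.4 CPM and 272, 199.7 and 232 CPM (−1.14, SE 0.0768, adjusted p 4.5e-07). Over the lists, 13 of 32 sterol and fatty acid genes were lower and 4 higher, and 10 of 30 glycolysis and hypoxia genes were lower and 8 higher. ALDOC, the brain-type aldolase, was higher with sh-DDX41_1 than with sh-DDX41_2 (1.39), with a control mean of 32.3 CPM above both. Nuclear genes of oxidative phosphorylation had 6 higher and 16 lower of 77, but 46 were lower without library D of sh-DDX41_1 (median −0.13, against −0.04 with it). Of the 75 mitochondrial ribosomal proteins 27 were higher, MRPL18 (1.12) the most of those named, and 11 lower, among them MRPS9 (−1.23), and 21 were lower without that library. MRPL18 was at 49, 50.2 and 44.5 CPM with sh-DDX41_2, below 98.4, 106 and 110.3 CPM with sh-DDX41_1 and 126, 124 and 131 CPM in sh-Control. The lysosome list had 7 higher and 14 lower of 46, and the proteasome list 3 higher and 10 lower of 39 (16 lower without that library). PSMG2, a chaperone of proteasome assembly, was at 41.9, 39.3 and 38.3 CPM with sh-DDX41_2 against 97.5, 93.3 and 106 CPM (1.30, SE 0.071, adjusted p 1.4e-07).

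The called genes also differed in base composition. By RefSeq class, 2697 of 11167 protein-coding genes were higher and 3013 lower, as were 77 and 60 of 421 long non-coding RNA genes. In 5 equal bins of transcript GC content, the share called higher went from 17.9% in the lowest bin (up to 42.4% GC) to 29.7% in the highest (from 59.0% GC), and the share called lower from 35.8% to 19.1%. Among transcripts of at least 3321 bases, the longest of 5 bins, 20.8% were higher and 32.1% lower. On chromosome 19, 319 of 889 genes were higher and 145 lower. Whether base composition had a part in single differences was examined only by the offsets for GC content and length. These were fitted on the same genes, and 6324 genes were called under them.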

How the data were processed

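Poly(A) RNA of sorted MOLM13 cells was sequenced in 9 libraries. The authors deposited 1 table of raw counts per gene, with no normalization. The submitters' processing notes name FastQC 0.11.7, HISAT2 2.0.5, featureCounts 1.5.2 and the builds hg38 and mm10 without roles. The counting settings, and so the handling of strand and of reads shared by genes, are not given in the sources used here. The labels name a stranded kit and the study's methods TruSeq v2, so overlapping antisense genes cannot be told apart.

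The hairpins were compared with edgeR 4.0.16 (R 4.3.3), using filterByExpr with a minimum count of 10, TMM factors over the 6 libraries and the quasi-likelihood test, with Benjamini-Hochberg adjustment over 12505 genes and a threshold of 0.05. A standard error is the log2 fold change over the root of F. Printed CPM use TMM factors over all 9 libraries. Below about 180 counts, counting error exceeds the biological coefficient of variation of 0.0746. The hairpin totals were 16385238 to 20510032. Named genes were DDX41, the 12 largest rises and falls with non-overlapping libraries and at least 5 CPM in the higher group, up to 3 called members per list and direction with the smallest p, and a list of stress genes carried over from an earlier analysis. SNORD33, SNORD34, SNORD25, C19orf48, the other control-based details and the printed sequences were chosen after their values were seen. Members and lists were chosen with earlier results of these data known. The results of 1 further list and of some genes that this rule names are not reported here. DESeq2 1.42.0 and limma 3.58.1 gave alternatives. The scripts were tested on simulated data. No column was left unmapped.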

Additional observations from a re-analysis of the deposited data

How the results depend on the processing

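The count of 6159 genes stayed between 4939 and 7276 when 1 library was left out, the lowest without sh-DDX41_2 B and the highest without sh-DDX41_1 D, and between 5783 and 6324 under the other fits, including DESeq2 size factors, upper quartile factors, library size alone, other count filters, DESeq2, limma voom, all 9 libraries, the 100 most abundant genes left out and the added offsets for GC content and length. Upper quartile factors moved the split to 3525 higher and 2731 lower, with the median over all genes at 0.05. An adjusted p under 0.01 left 4367 genes and a fold change of at least 2 left 805. The log2 fold change of DDX41 ranged from −1.88 to −1.68 and was called throughout. With the library letter as a replicate block 5824 genes were called. Same-letter libraries did not deviate together (r 0.017, −0.056 and −0.028), and not every library correlated best with its own letter. These are deviations from means of only 3 libraries, so they cannot settle whether same-letter libraries were made together.

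Of 237 named genes that were called, none changed direction and 219 kept their call in every alternative in which they were tested, where 15 of the 237 were not tested in 1 or 2 of the 17. The 18 that lost it in at least 1 include U2AF1, SNORD27, SOX4, ORC5, CD74, CWF19L1, CKS2, POLE3, DAXX, IRF9, JUN and JUND. ETS2, not called, changed sign with upper quartile factors (0.025) and without sh-DDX41_1 D (0.027) or sh-DDX41_2 A (0.0035), and ranged from −0.062 to 0.027 with 1 library left out. Of the 42 list medians, 24 moved by more than the spread between libraries in at least 1 alternative. A change of sign was seen in 10, none of them over 0.096 in size as reported. In 3 of these the reported median was larger than the spread between libraries, the BCL2 family (−0.026) and nonsense-mediated decay (0.0013) with the offsets and the sterol list (0.022) without sh-DDX41_1 D, from −0.15 to 0.022 with 1 library left out. The snoRNA median was 1.26 with at least 10 counts in every library (46 of 63 higher) and 0.42 with the offsets. Leaving out 1 sh-DDX41_2 library reduced the ribosomal protein genes called higher from 50 to between 26 and 31. Over all 17 alternatives that number ran from 16 to 65, though not every member was tested in each. At low levels depth limits what can be called. The causes of these shifts were not tested.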

Other observations

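Outside the gene lists, the genes with the widest gaps above 20 CPM were read after their values were seen. With sh-DDX41_1 lower and sh-DDX41_2 closer to sh-Control stood RPN2, TRAM1 and TMED4. RPN2, a subunit of the oligosaccharyltransferase, was at 147, 151 and 117 CPM against 426, 449 and 423 CPM and 363, 368 and 364 CPM in sh-Control (−1.65). Its sh-DDX41_2 libraries all lay above those of sh-Control. TRAM1, which helps proteins enter the endoplasmic reticulum, was at 125, 124 and 118 CPM against 375, 391 and 374 CPM and 384, 398 and 392 CPM (−1.65), and the cargo receptor TMED4 had means of 9.27, 28.1 and 26.7 CPM for sh-DDX41_1, sh-DDX41_2 and sh-Control (−1.61). The peroxisomal enzyme HSD17B4 was also lower with sh-DDX41_1, at 32.4, 33 and 36 CPM against 109, 121 and 108 CPM (−1.75). So was CYP1B1, at 307, 273 and 288 CPM against 899.5, 827 and 863 CPM (−1.59). The control levels of HSD17B4 and CYP1B1 are not given here.

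With sh-DDX41_1 higher and sh-DDX41_2 closer to sh-Control stood CISH, TRIB1 and TIFAB. CISH, an inhibitor of cytokine signaling through STAT5, was at 105, 97.9 and 86.8 CPM against 31.8, 31.5 and 30.5 CPM and 43.4, 40.2 and 39.2 CPM in sh-Control (1.61). The pseudokinase TRIB1 was at 172, 162 and 133 CPM against 58.5, 57.8 and 49.9 CPM and 70.7, 51.2 and 46.8 CPM (1.48). TIFAB was at 25.4, 22.4 and 22.1 CPM against 5.78, 6.49 and 5.94 CPM and 9.32, 9.86 and 8.10 CPM (1.93). In CISH and TIFAB every sh-DDX41_2 library lay below those of sh-Control. TIFAB lies by C5orf20, and whether these genes share reads was not tested. BPI, a granule protein against bacteria, was at 88.6, 95.6 and 92.2 CPM with sh-DDX41_2 and at 25.8, 29.3 and 26.6 CPM with sh-DDX41_1 (−1.77). The sh-Control libraries lay between them, at 45.7, 36.3 and 41.7 CPM. With sh-DDX41_2 higher and sh-DDX41_1 near sh-Control stood the scavenger receptor CD36 and the receptor LILRA2. CD36 had means of 25.9, 11.1 and 12.4 CPM for sh-DDX41_2, sh-DDX41_1 and sh-Control, and LILRA2 had 83.3, 35.6 and 38 CPM. These are values only, and no cause of them was tested.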
